A study of Oryza sativa Indica Group with 8 samples.

Results

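Among the known miRNAs that the authors counted in rice panicles, 39 were 21 nt long and were listed at 2 to 9 places in the genome. They were taken from the deposited annotation by 2 criteria. The first was a summed aligned length of 21 bases, and the second was the number of places, called loci here. These 39 identifiers made up 13.7% of the 285 known miRNAs, and their 137 loci made up 11.1% of the 1233 loci listed. All 39 were rows of the authors' table of known miRNAs.

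The series holds 8 small RNA libraries from panicles of 4 genotypes, Basmati370, KolaJoha, ThururBhog and IC463254, each under low_nitrogen and rec_nitrogen, with 1 library for each genotype and nitrogen level. The labels place all of them in the Oryza sativa Indica Group, while the positions refer to a japonica reference of unstated build. The labels state neither what amount of nitrogen each level means nor which genotypes are the efficient ones. The count columns carry names that match no label of the 8 samples, so no abundance, nitrogen response or genotype difference was analysed here. The results therefore describe where the 39 miRNAs lie and what lies beside them.

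A plant miRNA is cut from the stem of a hairpin-shaped precursor by a Dicer-like enzyme. One strand of the resulting duplex is loaded into an Argonaute protein, which silences transcripts that pair with it, and the other strand, from the opposite arm of the hairpin, is called the star or passenger strand. Many conserved plant miRNAs are made by families of genes whose mature products are identical, and a short read from such a product cannot be assigned to one gene of the family. The files list the miRNAs by RNAcentral identifiers, which name a unique RNA sequence, and give them no miRNA names, so the identifiers are used as deposited and no targets are given.

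Most of the 39 miRNAs had few loci. There were 17 with 2 loci, 9 with 3, 3 with 4, 2 with 5, 3 with 6, 4 with 7 and 1 with 8, and none had 9. The median was 3 loci and the mean 3.51 ± 1.88 (SD, n = 39). The upper limit fell in a gap between URS0000509E19, with 8 loci, and the next 21-nt identifier, with 12. Every one of the 137 alignments was ungapped and lay on chromosomes 1 to 12, with 72 on the plus and 65 on the minus strand.

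**Figure D1:**
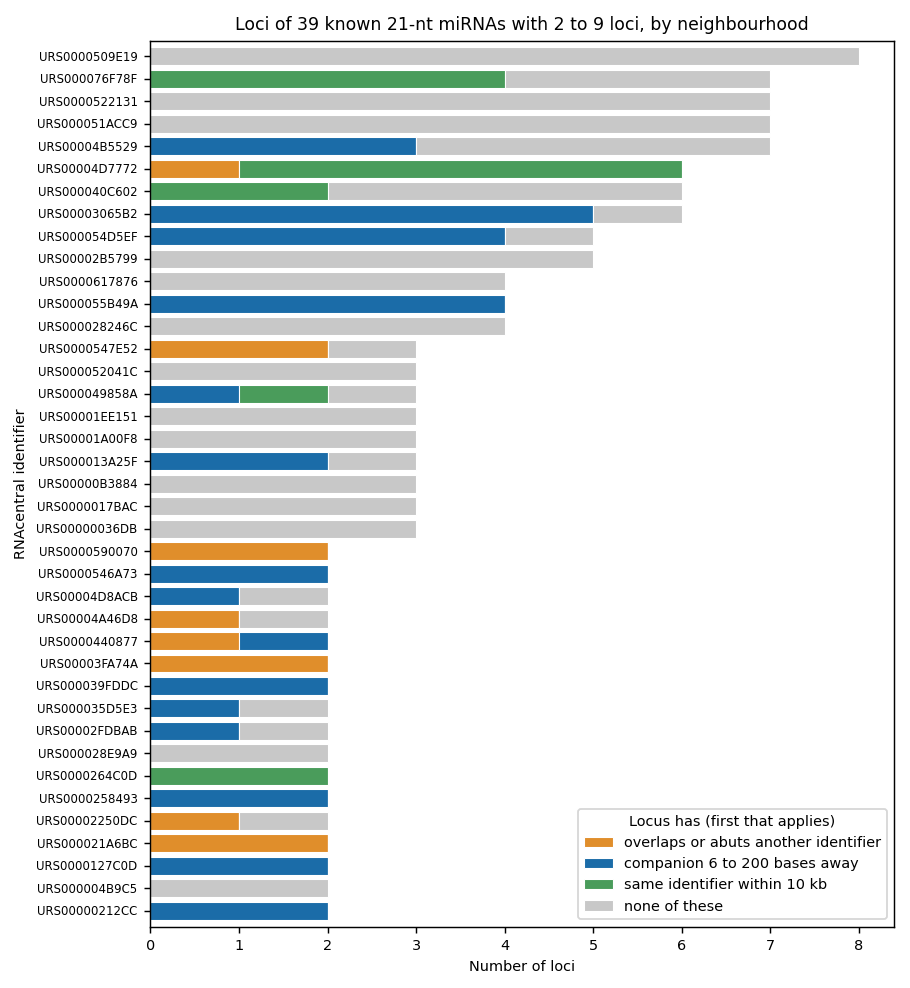
Number of loci of each of the 39 miRNAs (horizontal axis), with 1 bar per RNAcentral identifier, coloured by what lies beside each locus; a locus with several kinds of neighbour is counted under the kind named first in the key. Of the 137 loci, 78 have none of these neighbours, and URS0000509E19, with 8 such loci, has the longest bar.

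The loci of one miRNA were mostly on different chromosomes. In 23 of the 39 miRNAs no chromosome held more than 1 locus, and 16 had a chromosome with 2 or more. Of the 23, 15 had only 2 loci. Of the 239 pairs of loci that belong to one miRNA, 34 (14.2%) were on one chromosome. No random expectation was computed for this share. URS00004B5529 was the most widely spread, with its 7 loci on 7 chromosomes. At the other end, both loci of URS0000264C0D were on chromosome 11 and both of URS000035D5E3 on chromosome 1.

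Chromosome 2 held 27 of the 137 loci (19.7%) and loci of 22 of the 39 miRNAs. Chromosome 3 followed with 17 loci, and chromosomes 4 and 8 had 14 each, while chromosomes 7 and 11 had 4 each. Chromosomes 2 and 6 had 9 of the miRNAs in common, the most of any pair, chromosomes 2 and 3 had 7, and chromosomes 2 and 4 had 6. A miRNA was shared by 57 of the 66 possible pairs of chromosomes. These counts were not set against chromosome length or against the share of all known loci on each chromosome. A chromosome with many loci also takes part in many pairs.

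**Figure D2:**
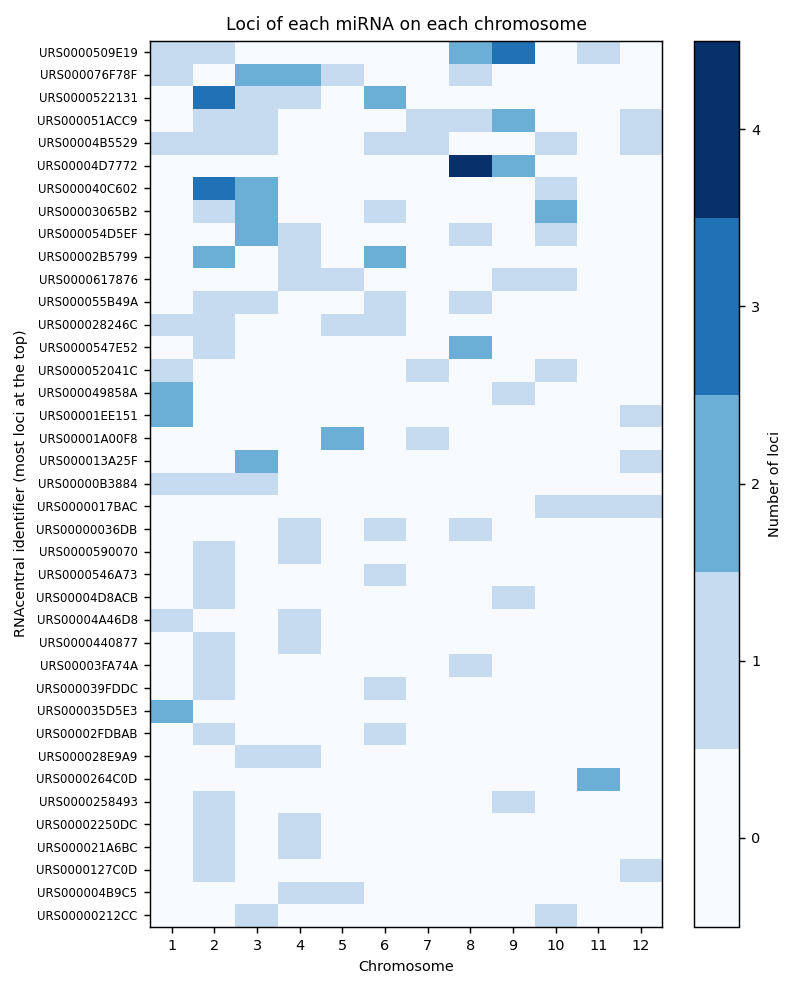
Number of loci of each miRNA (vertical axis, those with the most loci at the top) on each of the 12 chromosomes (horizontal axis), with darker cells for more loci. URS00004D7772 has 4 loci on chromosome 8, the darkest cell, and the chromosome 2 column is filled for 22 of the 39 miRNAs.

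Of the 8 miRNAs with 6 or more loci, 3 had no close neighbour at any locus. URS0000509E19 had 8 loci on 5 chromosomes, of which 3 were on chromosome 9 and 2 on chromosome 8. URS0000522131 had 7 loci on 4 chromosomes, with 3 on chromosome 2, and URS000051ACC9 had 7 loci on 6 chromosomes. The nearest same-strand locus of another known miRNA was 78.1 kb away for URS0000509E19, 33.7 kb for URS0000522131 and 1002 bases for URS000051ACC9. Close neighbour means here a same-strand locus of another identifier within 200 bases or overlapping, or a locus of the same identifier within 10 kb. In all, 14 of the 39 miRNAs, with 57 loci, had none at any locus, among them URS00000B3884 with another known locus 384 bases away. Counting every miRNA, 78 of the 137 loci (56.9%) had none.

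A same-strand locus of another known miRNA within reach of one hairpin was common. Such a companion, not overlapping and 6 to 200 bases away, lay beside 36 of the 137 loci (26.3%, exact Clopper-Pearson 95% interval 19.1 to 34.5). These loci belonged to 17 of the 39 miRNAs, 7 of which had a companion at every locus and 10 at some. The gap to the nearest companion ranged from 20 to 141 bases with a median of 61.5. At such distances both can be arms of one hairpin, but folding was not examined here. Of the 35 companion identifiers, 25 were also 21 nt long, 4 were shorter by 1 base, and 6 had 22 or 23 nt. Among the 35, 26 had a single locus, and 8 were themselves among the 39 miRNAs.

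The nearest companion kept to one side of its miRNA. There were 11 miRNAs with a companion at 2 or more loci, 30 such loci in all, and in each of the 11 the nearest companion was on the same side at every one of them, read along the strand of the miRNA. It was upstream, towards the 5′ end, for 5 miRNAs and downstream for 6. With every companion within 200 bases counted, 10 of the 11 kept one side, and the exception was URS0000127C0D, whose locus on chromosome 2 had companions on both sides. Most of the 11 had a companion at only 2 loci, and the largest number was 5, for URS00003065B2. No random expectation was computed for this agreement of sides. Some of these miRNAs are companions of each other, so the 11 are not independent observations.

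The identifier of the companion usually changed from locus to locus. That the miRNA stayed the same follows from how it was chosen, as an identifier with several loci. Companion sequences were not compared, and a small difference in sequence is enough for another identifier. A different companion was found at each such locus for 8 of the 11. URS00003065B2 had 6 loci, and at 5 of them the companion lay upstream, a different identifier each time. Its gaps were 67 bases on chromosome 10 (locus starting at 19987244), 49 on chromosome 2 (26130149), 59 and 22 on chromosome 3 (3487878 and 30392798) and 125 on chromosome 6 (30327102). The sixth locus, on chromosome 10 at 14483305, had none.

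URS000054D5EF showed the same layout at 4 of its 5 loci. Its upstream companions were 71 bases away on chromosome 10, 55 and 64 bases away on chromosome 3, and 38 bases away on chromosome 4. All 4 companions differed, and the locus on chromosome 8 had none.

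URS000055B49A had the opposite layout, with a downstream companion at each of its 4 loci. On chromosomes 2 and 6 the companion was URS0000546A73, a miRNA with only these 2 loci, at a gap of 42 bases both times. On chromosomes 3 and 8 other identifiers of 1 locus each lay 90 and 47 bases away. A companion that recurred was also seen for URS000039FDDC, whose loci on chromosomes 2 and 6 were each followed by the 20-nt miRNA URS00001C1987, here at unequal gaps of 94 and 56 bases.

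URS00004B5529 had downstream companions at 3 of its 7 loci, at gaps of 60 bases on chromosome 12, 141 on chromosome 6 and 49 on chromosome 7. The companion on chromosome 6 was URS00002FDBAB, which also followed it on chromosome 2, there at 213 bases and so beyond the limit of 200. The other miRNAs with downstream companions at 2 or more loci were URS00000212CC, URS000013A25F and URS0000440877. The companions of URS0000440877 were 23 nt long on both chromosomes, 2 and 4, and nearly equally far, at 114 and 118 bases.

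**Figure D3:**
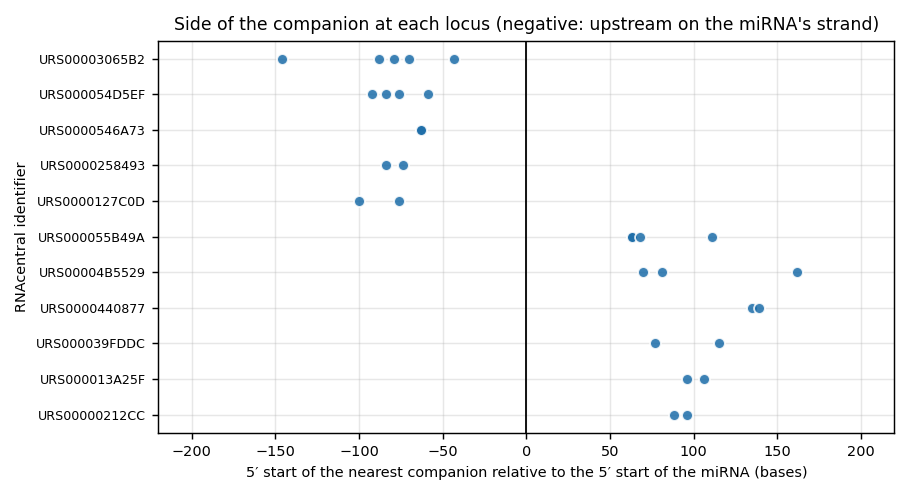
Position of the nearest companion's 5′ start relative to that of the miRNA, in bases along the miRNA's strand (horizontal axis), for the 11 miRNAs with a companion at 2 or more loci; each point is 1 locus, and 30 loci are shown, some of them on top of each other. Every row lies wholly to the left (5 miRNAs) or wholly to the right (6 miRNAs) of the line at 0.

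A short stretch of chromosome 2 held URS0000127C0D and URS0000258493 on the minus strand among shared companions. In the order of that strand the loci were URS00000E7487 (start 32435260), URS0000127C0D (32435184), URS00000C43D5 (32435097) and URS0000258493 (32435013). URS0000127C0D had URS00000E7487 at 55 bases upstream, URS00000C43D5 at 66 bases downstream and URS0000258493 at 150 bases downstream. URS00000C43D5 was also the nearest companion of URS0000258493, at 63 bases upstream. Their other loci, on chromosome 12 and chromosome 9, also had an upstream companion, at 79 and 53 bases. The remaining miRNAs with companions had one at a single locus, namely URS00002FDBAB, URS000035D5E3, URS000049858A, URS00004A46D8, URS00004D7772 and URS00004D8ACB.

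A smaller number of loci shared bases with another identifier or touched it. Overlaps on the same strand were found at 10 loci of 6 miRNAs, and 4 loci of 4 miRNAs had another identifier 0 to 5 bases away. Together these were 12 of the 137 loci (8.76%). The share was 6.19% for single-locus 21-nt miRNAs and 4.55% for 24-nt miRNAs of 2 to 9 loci. It was 0% for 20-nt and 22-nt miRNAs of 2 to 9 loci and for 21-nt miRNAs of 10 or more. These differences were not tested. URS0000590070 and URS000021A6BC were a shifted pair. They shared 15 of their 21 bases on chromosome 2 and again on chromosome 4, and URS000021A6BC began 6 bases further upstream both times, read along the minus strand on which all 4 loci lay. These 2 miRNAs had no other loci.

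URS0000547E52 and URS00003FA74A were shifted by 5 bases and shared 16 bases, on chromosome 2 and on chromosome 8. URS0000547E52 had a further locus on chromosome 8, 13.3 kb (13253 bases) before the shared one, where URS00003FA74A was not listed. On chromosome 2 the 21-nt miRNA URS00004C0729 ended where URS0000547E52 began, with 0 bases between them. The same end-to-end contact was listed between URS00002B4115 and URS00002250DC on chromosome 2, and URS000018983F lay 1 base upstream of the first chromosome 8 locus of URS00004D7772.

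The last 2 overlaps were with 22-nt miRNAs of 1 locus. On chromosome 4, all 21 bases of URS00004A46D8 lay within URS000039C9E6, with the same 5′ start. On chromosome 2, URS0000440877 shared 20 bases with URS000006A46E, which began 2 bases upstream. The labels do not say how reads were divided between overlapping identifiers.

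Repeats of one miRNA at short range came in 2 forms, head-to-tail runs and inverted pairs. In all, 16 of the 137 loci (11.7%, exact Clopper-Pearson 95% interval 6.82 to 18.3), from 5 miRNAs, had another locus of the same identifier within 10 kb. They divided evenly, with 8 loci in same-strand runs and 8 in opposite-strand pairs. A locus counted here always brings its partner with it, so these loci are not independent. URS00004D7772 gave 6 of the 16 and URS000076F78F gave 4, and the interval may be too narrow.

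URS00004D7772 had the longest run. All 6 of its loci were on the plus strand and in runs, 4 on chromosome 8 (starts 26803159, 26807359, 26813907 and 26817498) and 2 on chromosome 9 (19788871 and 19792143). The steps from start to start were 4.20, 6.55 and 3.59 kb on chromosome 8 and 3.27 kb on chromosome 9. A companion was listed at the first chromosome 8 locus alone, the 22-nt miRNA URS00003C0627 at 70 bases downstream. URS0000264C0D had both of its loci on the minus strand of chromosome 11, 3.73 kb apart. Just beyond the limit, URS00002B5799 had 2 of its 5 loci 10.7 kb apart on the minus strand of chromosome 2.

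The 4 inverted pairs were closer than any of the runs, at 100 to 589 bases from start to start. URS000076F78F had 2 of them, on chromosome 3 (starts 744190 and 744670) and on chromosome 4 (30286469 and 30286949). In both the plus-strand copy came first, so that the copies pointed towards each other, and the spacing was 480 bases each time. The pairs of URS000040C602 on chromosome 3 (32963518 and 32963618) and of URS000049858A on chromosome 1 (25326283 and 25326872) pointed away from each other, 100 and 589 bases apart. The minus-strand copy of URS000049858A had a companion 95 bases upstream, URS00003A4BF2.

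**Figure D4:**
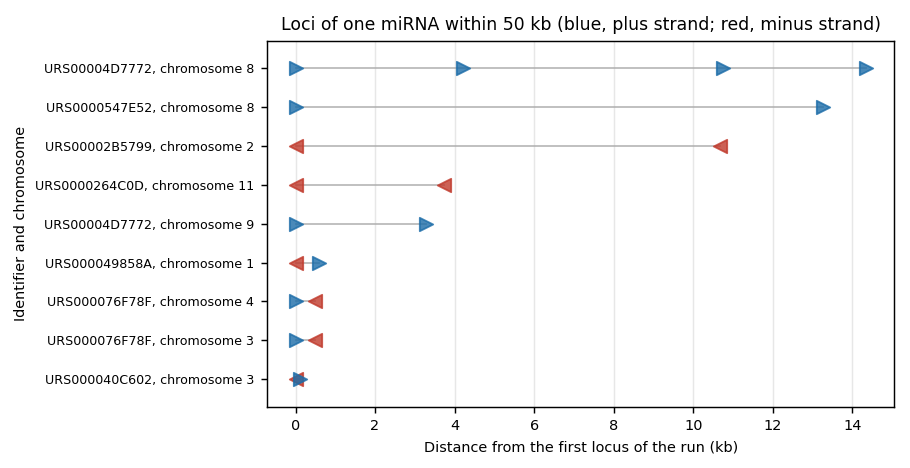
Loci of one miRNA that lie within 50 kb of each other, as distance from the first locus in kb (horizontal axis), with 1 row per miRNA and chromosome and the point of each triangle giving the strand. The 4 lowest rows hold the inverted pairs, at most 0.589 kb apart, and the other rows hold same-strand runs whose neighbours are 3.27 to 13.3 kb apart.

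Beyond 50 kb, loci of one miRNA on one chromosome were far apart. Of the 34 pairs on one chromosome, 9 were within 10 kb, 5 between 10 and 50 kb, 3 between 50 kb and 1 Mb, and 17 more than 1 Mb apart. The largest distance was that between 2 loci of URS000054D5EF on chromosome 3, at starts 1970575 and 30027870.

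Rice chromosomes carry long duplicated segments left by an ancient doubling of the genome, and several groups of these miRNAs lay close together on 2 different chromosomes. Counting 2 miRNAs as sharing such regions when they lay within 1 Mb of each other on each of 2 chromosomes, and leaving out those within 250 bases at both places, 9 pairs of miRNAs did so. They involved 12 miRNAs and 5 pairs of chromosomes. In 7 of the 9, the order and the strands of the loci were either kept or both reversed between the chromosomes for at least 1 choice of loci. Pairs that join the same regions were counted separately, so neither the 9 nor the 7 are independent observations. No random expectation was computed, and duplicated segments were not mapped here.

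The fullest case joined chromosomes 2 and 6. URS0000546A73, URS000055B49A, URS00002FDBAB and URS00004B5529 lay on the minus strand of chromosome 2 from 3511586 to 3742483 (starts). The same 4 lay on the plus strand of chromosome 6, with starts from 27674759 to 28081112 and in reversed order along the chromosome. On both chromosomes URS0000546A73 lay within 250 bases of URS000055B49A, and URS00002FDBAB within 250 bases of URS00004B5529. The 4 pairs counted between these couples are therefore a single case, counted repeatedly. The distance between URS00002FDBAB and URS0000546A73 was 231 kb (230663 bases) on chromosome 2 and 406 kb (406191 bases) on chromosome 6.

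On chromosomes 8 and 9, URS0000509E19 and URS00004D7772 were 298 kb apart on chromosome 8 (starts 26505563 and 26803159) and 141 kb apart on chromosome 9 (19647847 and 19788871), in the same order and on the same strands. On chromosomes 3 and 10, URS00003065B2 and URS00004B5529 were 140 kb (140186 bases) and 239.8 kb apart, with order and strands both reversed. URS00000036DB and URS000076F78F, on chromosomes 4 and 8, were the seventh such pair. The pairs that did not keep order and strands were URS00002B5799 with URS0000522131 and URS000040C602 with URS000055B49A.

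Set beside other known miRNAs, the share of loci with a companion was 26% for 22-nt miRNAs of 2 to 9 loci (13 of 50, exact Clopper-Pearson 95% interval 14.6 to 40.3), against the 26.3% given above. It was 20% for 20-nt miRNAs of 2 to 9 loci (3 of 15) and 2.27% for 24-nt miRNAs of 2 to 9 loci (1 of 44, 0.0575 to 12.02). For 21-nt miRNAs with 1 locus it was 47.8% (54 of 113, 38.3 to 57.4), and for those with 10 or more loci 0.455% (1 of 220, 0.0115 to 2.51). Per identifier, the share with a companion at any locus was 43.6% (17 of 39, 27.8 to 60.4) for the 39 miRNAs and 47.8% for single-locus 21-nt miRNAs. Among miRNAs of 2 to 9 loci it was 42.9% at 22 nt, 33.3% at 20 nt and 7.14% at 24 nt. It was 14.3% for 21-nt miRNAs of 10 or more loci. A miRNA with several loci has more chances of a companion than one with 1 locus. Loci within 10 kb of the same identifier were 11.7% for the 39 miRNAs, 8% at 22 nt, 4.55% at 24 nt and 0% at 20 nt. They were 15.5% for 21-nt miRNAs of 10 or more loci. These differences were not tested. Loci of one miRNA share its sequence and are not independent, so the intervals cover counting error only and may be too narrow. The classes are not separate either, because having a companion is mutual. Single-locus 21-nt companions of the 39 miRNAs are also counted as loci with a companion in their own class.

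**Figure D5:**
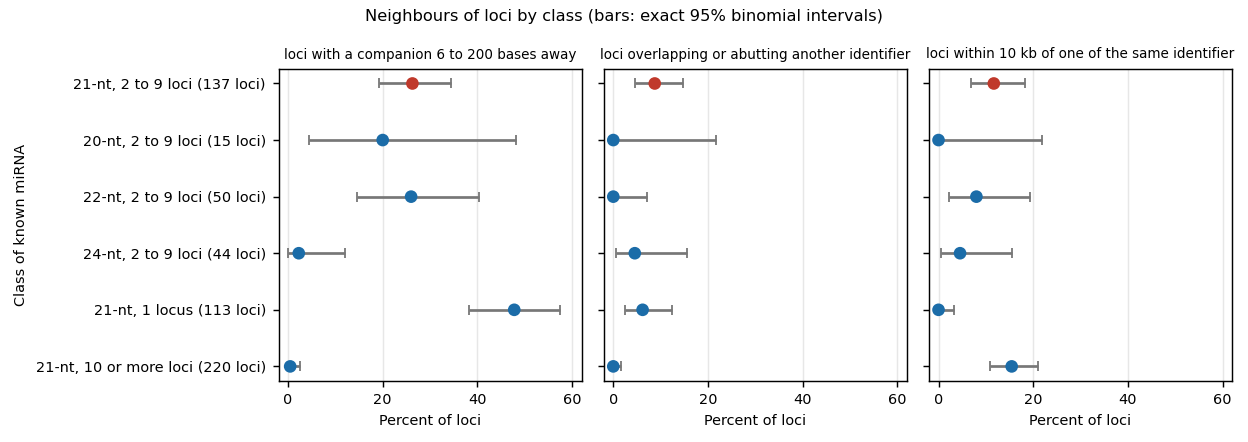
Percent of loci (horizontal axis) with each kind of neighbour in 6 classes of known miRNAs (vertical axis); points are shares, bars exact 95% binomial intervals, and the 39 miRNAs are the red point. In the left panel the red point, 26.3%, lies beside that of 22-nt miRNAs (26%) and between those of single-locus 21-nt miRNAs (47.8%) and 24-nt miRNAs (2.27%).

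The loci that the authors list as new were also set beside the 137 loci. None of the 137 loci overlapped any of the 1016 predicted loci, and 5 had one within 10 kb. The closest was on chromosome 2, 608 bases from URS0000546A73 and 671 bases from URS000055B49A, and these were the only 2 loci with a predicted locus within 1 kb. The median distance to the nearest predicted locus was 144 kb. The same counts were not made for other known loci, and no random expectation was computed. Whether the 137 loci differ from others in this was therefore not tested. The predicted list is one of loci outside the known set, so a lack of overlap can follow from how it was made.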

How the data were processed

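Per the labels and the design text, the authors removed adapters and reads of further non-coding RNA classes, then counted known miRNAs with a japonica genome as the reference. Among the tools, Bowtie, Subread, fastp and bedtools are credited in the submitters' processing notes, without versions, and no genome build is stated. Per the file headers, the count tables hold 16 per-library columns whose names match no sample label; their values came into view on opening the files and entered no step. Hence library depth was not analysed here, and the planned per-library values were not computed. The positions used are other values that the authors deposited, namely first and last bases of RNAcentral alignments, counted from 1, and the row names of both tables. The row names of predicted loci carry no strand, and both files were assumed to share a build.

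Length was the sum of aligned exons, and a locus was 1 transcript row. Gaps count the bases between loci. The limit of 5 bases between touching and separate loci and the search for shared regions were chosen after the positions had been seen. The members, the lists and the rule for named miRNAs (6 or more loci, or a close neighbour of any kind) were chosen with earlier results of these data known. Some miRNAs outside this rule were also named, among them URS00002B5799, URS00000B3884 and URS00000036DB. A gene table at hand, on another assembly, was not used and was not compared with the positions. Neighbour counts were tested on simulated loci at known distances. Positions were handled with pandas 2.3.3 in Python 3.11.15, intervals came from SciPy 1.17.1, and plots from Matplotlib 3.10.9.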

Additional observations from a re-analysis of the deposited data

How the results depend on the processing

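The 39 miRNAs and their 137 loci were the same in number with loci on chromosomes 1 to 12 alone and with gapped alignments left out, and the 39 also with the smallest aligned length of each identifier. Of 19 alternatives, 15 stayed within 1.5 times of the reported count or, for the median of loci, within 1 SD. Several of the 15 had little room to change. All 137 loci were ungapped and on chromosomes 1 to 12, so those settings could remove none of them. Every overlap shared at least 15 bases, so requiring 15 could not change that count. Loci with another of the same identifier nearby numbered 16 within 10 kb, 20 within 50 kb and 8 within 1 kb; those 8 are the inverted pairs. Loci near a predicted locus went from 5 within 10 kb to 2 within 1 kb and 0 for overlap. Pairs of miRNAs that shared regions on 2 chromosomes numbered 9 at 1 Mb, 6 at 0.5 Mb and 15 at 2 Mb, the last beyond 1.5 times; wider limits contain the narrower ones. Loci with a same-strand neighbour, touching ones included, numbered 39 within 200 bases, 34 within 100 and 42 within 500. The nearest companion kept one side in 10 of 10 miRNAs at 100 bases and 12 of 12 at 500 bases. A wider limit leaves the nearest companion of a locus unchanged, and a narrower one only drops loci. These side counts therefore had little room to change. The limits for shared regions and for sides were chosen after seeing the data. No paired analysis was possible because the result comes from no test and the columns carry no replicate number. Scaling of counts was not run, since no column could be matched to a sample.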

Other observations

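Known loci on the opposite strand were rarely close. URS000076F78F, one of the miRNAs with 7 loci, had the 21-nt miRNA URS0000572521 on the other strand 37 bases away on chromosome 5. The plus-strand copy of URS000049858A on chromosome 1 had URS00004AE755 on the other strand 73 bases away. These were the only 2 loci among the 137 with a different identifier on the opposite strand within 200 bases, and they were chosen after the positions had been seen.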
